A study of Mus musculus with 13 samples.

Results

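The genes described here encode the enzymes that handle arginine, methionine and folate-bound carbon, the routes from which creatine is made. Of 31 listed genes, 29 were measured on the arrays, through 52 probe sets that carry a single gene symbol, among 18193 genes and 45037 probe sets in all. Members were picked by name from the probe annotation, and each gene was read at its brightest probe set, the one with the highest mean over all arrays. Mat2a and Amt were not analysed here. The genes were split into 8 of arginine, urea cycle and polyamine metabolism, 13 of the methionine and methyl cycle with transsulfuration, and 8 of folate, serine and glycine metabolism.

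Male C3HeB/FeJ mice, an inbred strain, each gave RNA from a brain hemisphere, and biotin-labelled cRNA was hybridised to 1 array per mouse, 13 in all. In the creatine group, 6 mice were fed pellets containing 1% creatine for 6 months, starting at 10 to 12 weeks of age. The untreated group, 7 mice of the same strain, sex and starting age, ate pellets of equal caloric content that lacked creatine. The question put to these genes is whether their transcripts differ after long creatine feeding. The labels call the arrays biological replicates and say nothing of cages or litters.

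Creatine is built from arginine and glycine by Gatm, and the product is methylated by Gamt with S-adenosylmethionine, the methyl donor made from methionine. Once the methyl group is given away, S-adenosylhomocysteine remains and is split to homocysteine, which is either remethylated to methionine with a folate- or betaine-bound methyl group or drained to cysteine. Serine and glycine feed carbon units into the folate pool, and the same pool supplies thymidylate synthesis. A complete urea cycle and much of the betaine and glycine methylation route are known from liver, whereas brain relies on folate for remethylation.

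All values are the deposited intensities, linear numbers on a scale where the median probe set of an array read between 37 and 45. Pairs of arrays correlated across probe sets with Pearson's r from 0.984 to 0.996, and probe sets are not independent replicates. Untreated replicate 3 stood apart in its makeup: the summed intensity of 4 cerebellar markers (Pcp2, Cbln1, Gabra6 and Neurod1) was 411 there, against 4566 to 8875 in the other untreated mice and 2256 to 6577 in creatine-fed mice, the lowest of them replicate 4. All 6 neuron, all 9 astrocyte, all 6 oligodendrocyte and all 6 microglia markers read above their array's median on all 13 arrays, while 4 of 5 hepatocyte markers were below it on every array. The mean log2 ratio of 3' to 5' control probe sets lay between 0.09 and 0.22 in creatine-fed mice and between 0.13 and 0.24 in untreated mice.

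No member was called as changed after creatine feeding. The test used was limma's moderated test of the log2 difference, with Benjamini-Hochberg adjustment over all 45037 probe sets and a threshold of 0.05. The smallest adjusted p of a member was 0.257, for Mtr, and 0 of 52 member probe sets passed. Over all probe sets 4 passed, or 0.00888%, and of the 18193 genes at their brightest probe set 1 did, or 0.0055%. At an unadjusted p under 0.05, 4 of 29 members stood out, Mtr, Shmt1, Asl and Mat2b, all with lower means in creatine-fed mice. That is 13.8% of the members, against 11.2% of all genes in either direction; for lower means alone, 7.61% of all genes reached that limit, and 3.58% for higher means. The count of members under that limit was 2 without creatine-fed replicate 1, 2 or 3 and 1 without untreated replicate 3 or 5. Members counted there need not be among these 4: without creatine-fed replicate 2, Mtr was the only one of them. In no member did the groups separate completely, as they did in 0.649% of all genes.

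The median log2 difference (creatine minus untreated, of intensity + 16) was -0.03 over the 29 members and -0.03 over all genes. Of the members, 18 had lower and 11 higher means, and 58.5% of all genes had lower means. When each array was centred on its own median, 14 members were lower and 15 higher, and both medians turned to positive, at 0.03 and 0.02, so no direction is given for the members as a group. The step lists had medians of -0.04 (arginine, 5 lower and 3 higher), -0.06 (methionine, 10 lower and 3 higher) and 0.01 (folate, 3 lower and 5 higher).

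**Figure D1:**
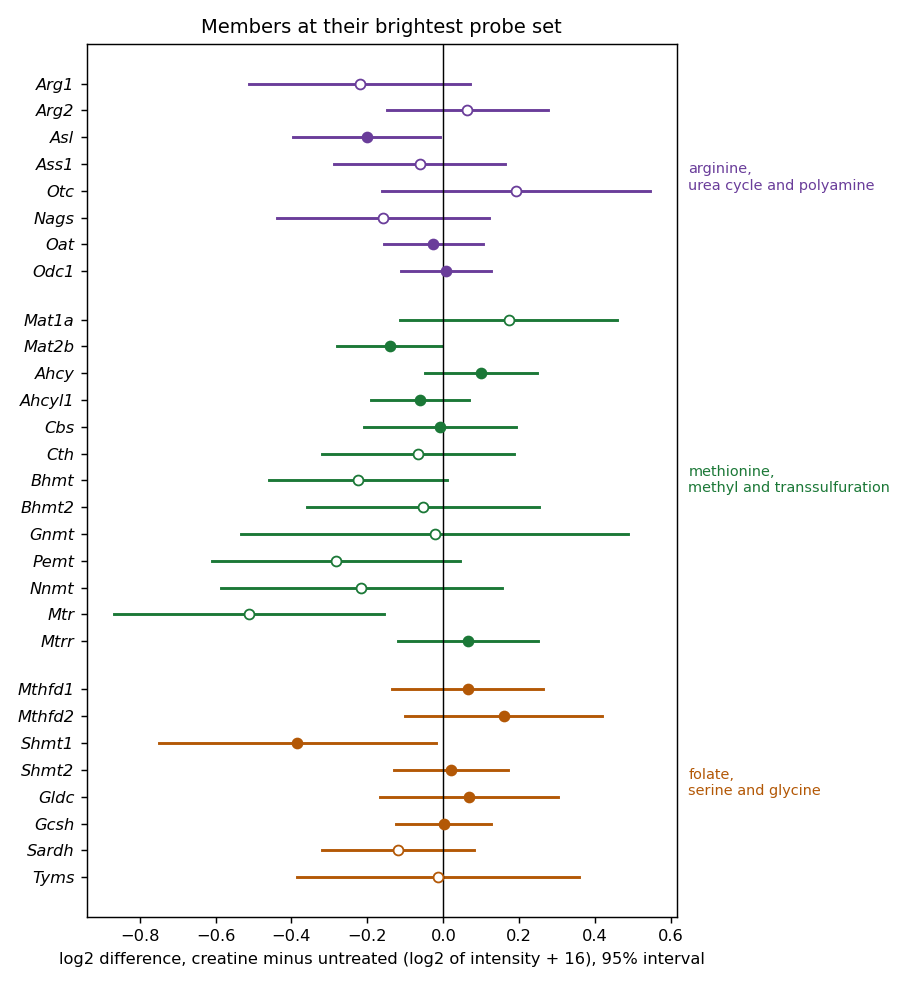
Log2 difference between creatine-fed (n = 6) and untreated (n = 7) mice for each of the 29 measured members, with its 95% interval from limma; filled points read above the array median on all 13 arrays and open points did not. Intervals of Mtr, Shmt1, Asl and Mat2b lie below 0 before adjustment for multiple tests, and 25 intervals contain 0.

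In the arginine group, Asl, Oat and Odc1 read above the array median on all 13 arrays, and the other 5 members did not. Oat, the mitochondrial ornithine aminotransferase that links ornithine to proline and glutamate, read 760 at the lowest, 844 at the median and 898 at the highest in creatine-fed mice, against 807, 841 and 940 in untreated mice. Its means of 834 ± 46.2 (SD, n = 6) and 849 ± 44.7 (SD, n = 7) gave a log2 difference of -0.03 with a 95% interval from -0.16 to 0.10, and the groups overlapped almost entirely. Odc1, ornithine decarboxylase, the entry step of polyamine synthesis, read 452, 479 and 493 in creatine-fed mice and 438, 475 and 501 in untreated mice, with a log2 difference of 0.01 (95% interval -0.11 to 0.12). For both genes the interval leaves out a log2 difference beyond 0.16 in either direction.

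Asl, argininosuccinate lyase, which releases arginine and fumarate in the urea cycle and in the recycling of citrulline for nitric oxide synthesis, read 79, 105 and 115 in creatine-fed mice and 106, 111 and 146 in untreated mice. The untreated mean was above all 6 creatine-fed mice, 4 of them below the lowest untreated mouse, but the highest creatine-fed mice lay inside the untreated range. Means were 101 ± 12.7 and 119 ± 14.5, a log2 difference of -0.20 ± 0.09 (SE), with an unadjusted p of 0.0425 and an adjusted p of 0.40. Centring each array on its median brought the difference to -0.15 and the unadjusted p to 0.168, and without untreated replicate 3 they were -0.20 and 0.0577. An exact permutation test over all 1716 splits of 6 against 7, 2-sided, gave 0.0291 for Asl, unadjusted for its choice by p.

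The partner of Asl, argininosuccinate synthase Ass1, could be read alone only at the dim probe set 1459937_at, with means of 18.2 ± 3.66 and 19.9 ± 5.55. A brighter probe set that the annotation assigns jointly to Ass1 and Gm5424, 1416239_at, read 194 ± 34.1 in creatine-fed mice and 186 ± 25.2 in untreated mice (log2 difference 0.05, adjusted p = 0.912), and which of the pair it reports cannot be told. The liver enzymes of the urea cycle were dim in this tissue. Arg1, the cytosolic arginase, read between 1 and 16 on the 13 arrays, Otc, ornithine transcarbamylase, between 1 and 17, and Nags, which makes the activator of the first urea cycle step, between 11 and 31, and each stayed under the array median on all of them. Arg2, the mitochondrial arginase, read 33.0 ± 3.10 and 31.3 ± 6.97, with 1 of 13 arrays above its median. Values this close to the bottom of the scale carry wide intervals: for Otc the log2 difference of 0.19 had an interval from -0.16 to 0.54.

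In the methionine group, Ahcyl1, an S-adenosylhomocysteine hydrolase-like protein known for binding the IP3 receptor, read 2453, 2517 and 2851 in creatine-fed mice and 2552, 2671 and 2953 in untreated mice at 1426830_a_at. There 4 of 6 creatine-fed mice were below the lowest untreated mouse, and the log2 difference was -0.06 (95% interval -0.19 to 0.07). Its other probe sets differed by 0.00 and 0.01. Ahcy, the hydrolase that splits S-adenosylhomocysteine itself, read 265, 288.5 and 337 against 239, 274 and 293, with 5 of 6 creatine-fed mice above the untreated mean. That difference of 0.10 ± 0.07 (SE) did not pass (unadjusted p = 0.175, adjusted p = 0.615).

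Mat2b, the regulatory subunit of the methionine adenosyltransferase found outside the liver, read 720, 794 and 849 in creatine-fed mice and 794, 866 and 956 in untreated mice. All 6 creatine-fed mice were below the untreated mean and 3 were below every untreated mouse, with the remaining 3 inside the untreated range. Means of 782 ± 49.7 and 864 ± 53.4 gave a log2 difference of -0.14 ± 0.06 (SE), unadjusted p = 0.0462 and adjusted p = 0.41, and the exact permutation p was 0.0152, unadjusted. This difference shrank to -0.09 (unadjusted p = 0.295) when each array was centred on its median and grew to -0.16 (unadjusted p = 0.0159) after quantile normalization. Without untreated replicate 3 it was -0.13 (unadjusted p = 0.073 by limma). Of the 13 fits that left out 1 mouse each, 3 had an unadjusted p under 0.05 for Mat2b. The liver catalytic subunit Mat1a read between 2 and 17 on all arrays, below the array medians.

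Mtr, methionine synthase, which carries the folate-bound methyl group to homocysteine with cobalamin as cofactor, had the widest difference of all members. At 1439811_at it read 5, 16.5 and 35 in creatine-fed mice and 24, 31 and 42 in untreated mice. In 5 of 6 creatine-fed mice the value was below every untreated mouse, while replicate 4, at 35, lay above the untreated mean. Means of 17.8 ± 10.4 and 30.7 ± 5.99 gave a log2 difference of -0.51 ± 0.17 (SE), unadjusted p = 0.00812 and adjusted p = 0.257, and an exact permutation p of 0.014, unadjusted. Leaving out each mouse in turn moved the difference between -0.39 (without creatine replicate 1) and -0.64 (without creatine replicate 4), and the smallest adjusted p among these was 0.108. Both probe sets of Mtr were under the array median on every array, and the other, 1458532_at, differed by -0.16 (unadjusted p = 0.276). The size also depended on the offset added before the logarithm, from -0.26 with 50 to -0.94 with 1. Mtrr, the reductase that keeps methionine synthase active, read 116 ± 6.49 and 111 ± 15.9, a log2 difference of 0.06 (95% interval -0.12 to 0.25).

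**Figure D2:**
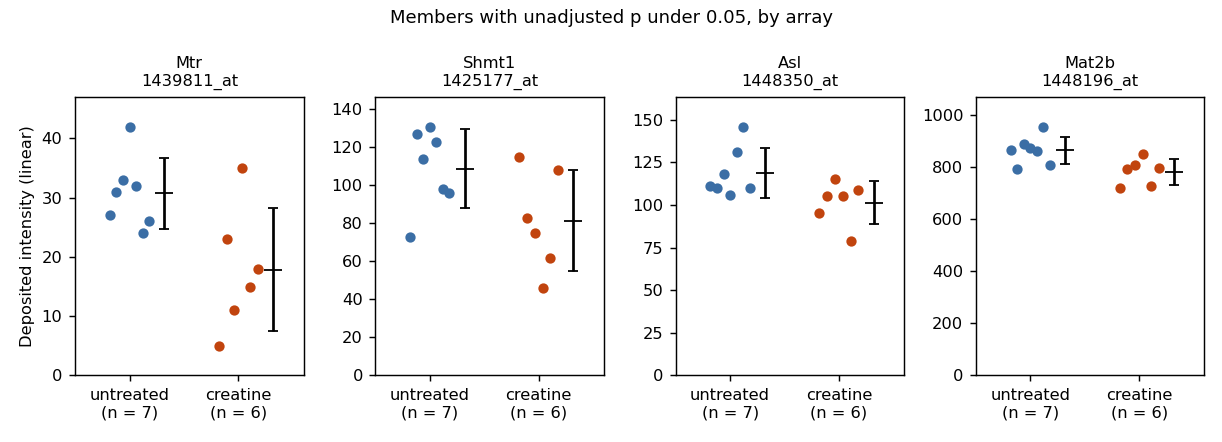
Deposited intensity on each array, on linear axes that start at 0, for the 4 members with an unadjusted p under 0.05; points are mice, bars the mean with SD. The groups overlap in all 4, and none passed after adjustment.

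The betaine route, an alternative way to remethylate homocysteine, was dim. Bhmt, betaine-homocysteine methyltransferase, read 13.5 ± 2.95 in creatine-fed and 18.7 ± 5.77 in untreated mice (log2 difference -0.22, unadjusted p = 0.0581, adjusted p = 0.445), and its relative Bhmt2 read 7.67 ± 5.28 and 8.29 ± 3.59. Gnmt, the glycine methyltransferase that disposes of surplus S-adenosylmethionine in liver, read between 1 and 29. Nnmt, which methylates nicotinamide, read 11.2 ± 6.05 and 15.6 ± 7.18. All of these were under the array median on all 13 arrays. Pemt, which makes phosphatidylcholine with methyl groups from S-adenosylmethionine, read 29.5 ± 11.1 and 38.4 ± 8.06 (log2 difference -0.28, unadjusted p = 0.0835, adjusted p = 0.495), with 2 creatine-fed mice below every untreated one.

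On the transsulfuration branch, which turns homocysteine into cysteine, Cbs, cystathionine beta-synthase, read 100.5 ± 11.4 and 101 ± 13.8 at its brightest probe set, a log2 difference of -0.01 (95% interval -0.21 to 0.19), and differed by 0.13 at the other. Cth, the following enzyme, cystathionine gamma-lyase, read 42.8 ± 9.24 and 45.4 ± 8.34 (log2 difference -0.07, 95% interval -0.32 to 0.18). Neither enzyme differed beyond the spread between mice.

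In the folate group, Gcsh, the lipoyl carrier protein of the glycine cleavage system, gave the smallest difference of all members. It read 738, 769 and 864 in creatine-fed mice and 741, 781 and 832 in untreated mice, with means of 786 ± 47.8 and 785 ± 28.7 and a log2 difference of 0.00 (95% interval -0.12 to 0.13). Gldc, the glycine decarboxylase of the same complex, read 105 ± 12.3 and 100.4 ± 19.2, a difference of 0.07 (95% interval -0.17 to 0.30). Mthfd1, the cytosolic enzyme that interconverts folate-bound carbon units, read 224, 283.5 and 325 in creatine-fed mice and 241, 265 and 337 in untreated mice, a log2 difference of 0.06 (95% interval -0.14 to 0.26). A second probe set of Mthfd1, 1415917_at, went the other way, at 171 ± 17.0 and 192 ± 25.9 (-0.15, unadjusted p = 0.122).

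Shmt1, the cytosolic serine hydroxymethyltransferase, which moves a carbon unit from serine to folate, read 46, 79 and 115 in creatine-fed mice and 73, 114 and 131 in untreated mice at 1425177_at. Creatine-fed replicates 1 and 6, at 115 and 108, lay with the untreated mice, and untreated replicate 1, at 73, lay with the creatine-fed ones. The means, 81.5 ± 26.5 and 109 ± 20.9, gave a log2 difference of -0.38 ± 0.17 (SE), unadjusted p = 0.0407 and adjusted p = 0.396, and an exact permutation p of 0.0612. Without creatine replicate 4 it was -0.26 (unadjusted p = 0.108), and without untreated replicate 3 it was -0.37 (unadjusted p = 0.0633). The other 3 probe sets of Shmt1 differed by -0.08, 0.00 and 0.01, and none of them reached the array median on more than 1 of 13 arrays.

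Shmt2, the mitochondrial form of the enzyme, read 107, 114.5 and 139 in creatine-fed mice and 104, 114 and 130 in untreated mice, a log2 difference of 0.02 (95% interval -0.13 to 0.17). One of its dimmer probe sets, 1455985_x_at, read 47.8 ± 9.24 and 60.0 ± 10.6 (-0.25, unadjusted p = 0.0487, adjusted p = 0.417). The exact permutation p of that probe set was 0.0659, unadjusted, while 1434204_x_at differed by 0.13. The suffix _x_at marks probes that may also match other transcripts, and the brightest probe set of Shmt2 carries it as well. Mthfd2, the mitochondrial dehydrogenase and cyclohydrolase that acts after Shmt2, read 74.2 ± 14.4 and 64.9 ± 13.01 at 1419254_at (0.16) but 49.5 ± 17.7 and 60.0 ± 14.5 at 1419253_at (-0.26), and neither passed. Sardh, the mitochondrial sarcosine dehydrogenase, read 46.0 ± 5.73 and 51.6 ± 8.92 (-0.12). Tyms, thymidylate synthase, a gene of dividing cells, read between 2 and 25 at its brightest probe set and stayed under the array medians at all 4.

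**Figure D3:**
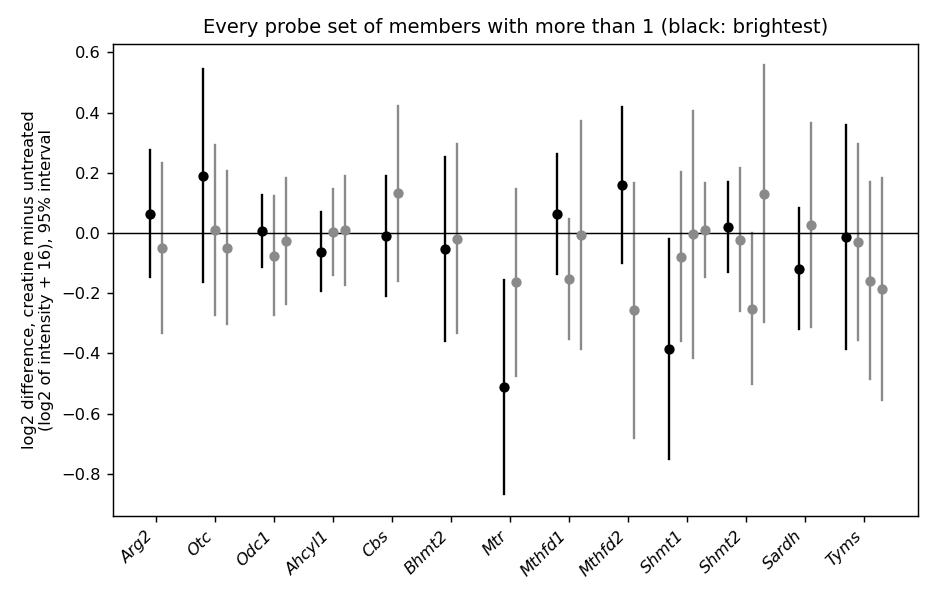
Log2 difference with its 95% interval for all 36 probe sets of the 13 members that have more than 1, the brightest in black and the others in grey. Probe sets of a gene lie on both sides of 0 in 10 of the 13, and the low values of Mtr and Shmt1 are not repeated at the same size by their other probe sets.

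How firmly a difference can be bounded followed the level. For the 14 members above the array median on all arrays, the 95% interval of the log2 difference reached between 0.12 and 0.37 to each side, and the coefficient of variation among untreated mice ran from 3.66% (Gcsh) to 20.1% (Mthfd2). For the 11 members below it on all arrays, the interval reached between 0.23 and 0.51 to each side and the coefficient of variation ran from 19.5% to 87.6%. The offset of 16 also compresses differences of these dim genes. For dim and brighter members alike, a difference that did not pass was not shown to be missing. Mtr, with the widest difference of all members, is 1 of the 11.

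Other genes of the same routes were read from 3 lists of 66 names, 59 of them measured. None passed over all probe sets, and 7 of 59 had an unadjusted p under 0.05, or 11.9%, against 11.2% of all genes. In the list of arginine transport, polyamine and nitric oxide genes 0 of 21 reached that limit by limma, with 18 lower and 3 higher means. The median log2 difference of this list was -0.05, against -0.03 over all genes, of which 58.5% had lower means. Centring each array on its median moved the all-gene median to 0.02. It shifts every log2 difference by the same amount, so the 18 to 3 split depends on the scaling. No direction is given for this list. Gatm and Gamt, which make creatine, read 340 ± 23.0 against 358 ± 31.4 and 87.0 ± 11.6 against 91.6 ± 10.3, with log2 differences of -0.07 (95% interval -0.22 to 0.08) and -0.06 (95% interval -0.25 to 0.12).

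In the folate transport, interconversion and serine synthesis list, 4 of 19 (21.1%) had an unadjusted p under 0.05, against 11.2% of all genes. Fpgs, folylpolyglutamate synthase, which adds the glutamate tail that keeps folate inside cells, read 52, 61.5 and 77 in creatine-fed mice and 79, 85 and 95 in untreated mice. Every creatine-fed mouse was below every untreated mouse, and this was the only 1 of the 59 genes with groups apart, which 0.649% of all genes had. Means of 62.5 ± 9.48 and 85.7 ± 5.41 gave a log2 difference of -0.38 ± 0.08 (SE), unadjusted p = 0.000272 and adjusted p = 0.128, so it did not pass. A refit of only the 22519 probe sets of higher mean, a set of fewer tests, called 137 of them. There Fpgs had an unadjusted p of 0.000118 and an adjusted p of 0.0433. Its adjusted p was 0.147 after quantile normalization, 0.171 after median centring and 0.0792 with eBayes set to trend and robust. With the replicate number as a block it was 0.277. Fpgs thus passed in the refit of probe sets of higher mean and under none of the other settings given here. Over the fits that left out 1 mouse each the difference stayed between -0.43 and -0.34, with adjusted p from 0.0879 to 0.232. The array holds 1 probe set with the symbol Fpgs alone, so no second reading was at hand.

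Slc19a1, the reduced folate carrier of the cell membrane, read 142, 175.5 and 201 in creatine-fed mice and 169, 213 and 221 in untreated mice. All 6 creatine-fed mice were below the untreated mean, and the log2 difference was -0.24 ± 0.09 (SE, adjusted p = 0.288). After centring each array on its median it was -0.19 (unadjusted p = 0.0705 by limma). The other probe sets of Slc19a1 differed by -0.12 and -0.06. Pipox, a peroxisomal oxidase of sarcosine and pipecolic acid, read 28, 36.5 and 46 against 42, 51 and 76, with 5 of 6 creatine-fed mice below every untreated mouse and a log2 difference of -0.39 ± 0.11 (SE, adjusted p = 0.215). Slc25a32, the folate carrier of the mitochondrial membrane, was on the other side, at 43, 49 and 60 against 32, 43 and 48 (0.21 ± 0.09, SE, adjusted p = 0.347). Its dimmer probe sets differed by -0.16 and -0.09. With eBayes set to trend and robust its unadjusted p was 0.0648.

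In the list of methionine salvage, methyl transfer and sulfur metabolism, 3 of 19 (15.8%) had an unadjusted p under 0.05, against 11.2% of all genes. Gclc, the catalytic subunit of the enzyme that starts glutathione synthesis from cysteine, read 421, 546 and 593 in creatine-fed mice and 363, 402 and 489 in untreated mice at 1424296_at, with 5 of 6 above every untreated mouse (log2 difference 0.33 ± 0.09, SE, adjusted p = 0.215). The lowest mouse of each group, creatine-fed replicate 4 and untreated replicate 3, was also the one with the lowest cerebellar marker sum. Without creatine replicate 4 the difference was 0.39 and without untreated replicate 3 it was 0.29, and its second probe set, 1455959_s_at, read 279 against 282 (-0.01). Csad, which makes hypotaurine from cysteine sulfinate, read 114, 121.5 and 129 against 116, 146 and 156 (-0.18 ± 0.07, SE, adjusted p = 0.307). After median centring its difference was -0.13 (unadjusted p = 0.122 by limma). Prmt5, an arginine methyltransferase that uses S-adenosylmethionine, read 382, 416 and 490 against 341, 365 and 414 (0.18 ± 0.07, SE, adjusted p = 0.354). With the replicate number as a block its unadjusted p by limma was 0.0869.

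**Figure D4:**
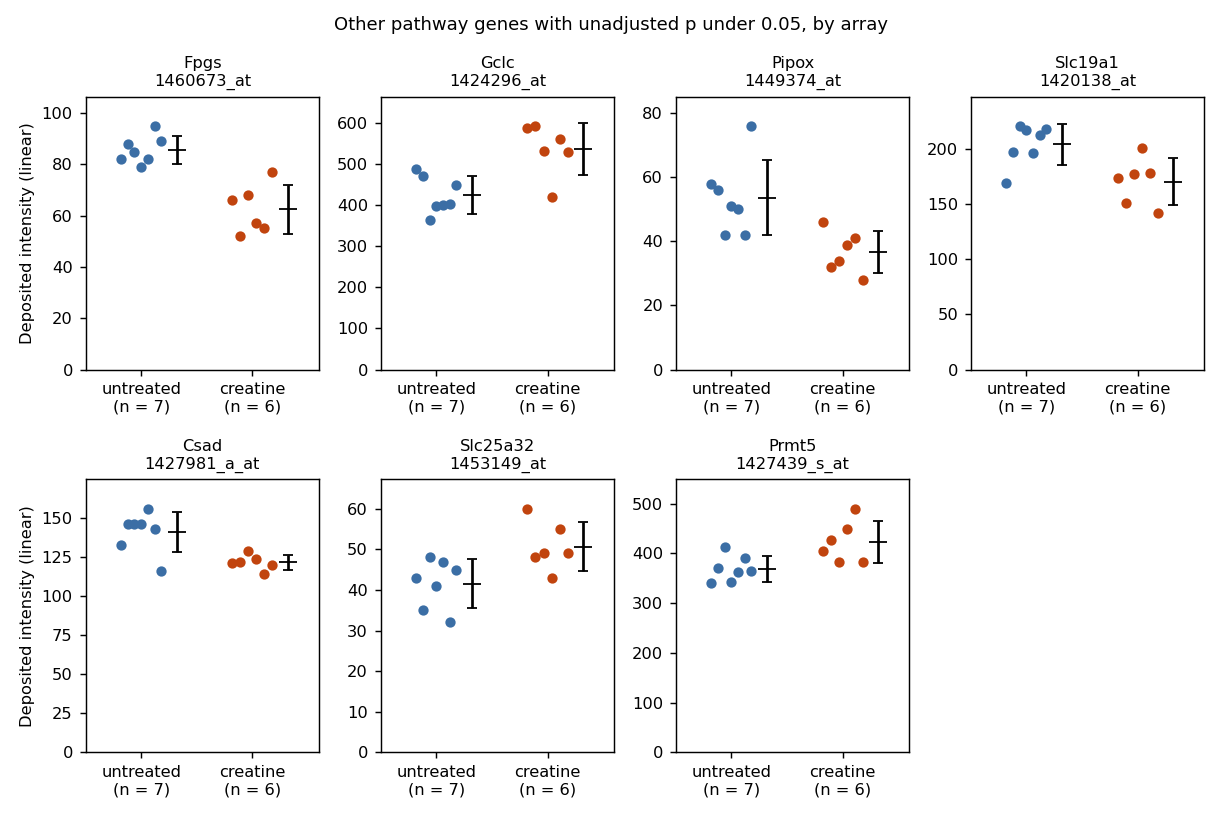
Deposited intensity on each array, on linear axes that start at 0, for the 7 other genes of the routes with an unadjusted p under 0.05; points are mice, bars the mean with SD. Fpgs is the one panel in which the groups do not overlap, and none of the 7 passed after adjustment over all probe sets.

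Markers of some cell types also had lower or higher means in creatine-fed mice. All 9 astrocyte markers had negative log2 differences, with a median of -0.13. That of Slc1a3 was -0.005, and its linear means were 1259.5 and 1259.3. The summed intensity was 16575 to 17390 in creatine-fed and 17276 to 19470 in untreated mice. Median centring of the arrays left 6 lower and 3 higher, and quantile normalization 8 lower and 1 higher. All 6 oligodendrocyte markers were lower under each of these scalings (median -0.14, sums of 13328 to 15414 and 15106 to 19175). The 5 hepatocyte markers, dim in this tissue with sums of 36 to 65 and 58 to 132, were lower as well (median -0.12), 4 of them after centring. All 6 microglia markers had higher means under each scaling (median 0.08), with overlapping sums of 1819 to 1988 in creatine-fed and 1653 to 2026 in untreated mice. All 4 cerebellar markers had positive log2 differences under each scaling (median 0.21). Their linear means were lower in creatine-fed mice, Pcp2 for one at 1488 against 1670. Their sums were wide and overlapping, 2256 to 6577 in creatine-fed and 411 to 8875 in untreated mice. The 411 was untreated replicate 3 alone, and the other untreated mice had sums of 4566 to 8875. Log2 differences of these markers without that mouse are not given here, so no direction is given for them. Neuron markers were split, 4 higher and 2 lower (median 0.03, sums of 23463 to 26797 and 24079 to 26732), as were endothelial markers, 2 and 2 (median -0.04, sums of 819 to 1002 and 862 to 1068). Marker sums of choroid plexus, 5926 to 9629 in creatine-fed and 4838 to 11576 in untreated mice, and of meninges and fibroblasts, 788 to 955 and 766 to 983, overlapped. The part of these markers in the lower means of Mtr, Shmt1, Asl, Mat2b, Fpgs, Slc19a1, Pipox and Csad, and in the higher means of Gclc, Prmt5 and Slc25a32, was not tested. In RNA of a whole hemisphere, fewer cells of a type and less RNA per cell cannot be told apart.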

How the data were processed

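Intensities deposited by the authors are linear whole numbers for 45101 probe sets. The submitters' processing notes name only RMA, which returns log2 values; the deposited numbers are linear and have the same mean, 150.05, on every array once the highest and lowest 2% are removed, so they have the form of a scaling to a target. The scaling tool is not given in the sources used here, and no further scaling was applied.

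Symbols came from the platform's probe annotation, updated through the Entrez ID (34741 probe sets); 34945 probe sets had 1 symbol, 932 several and 9160 none listed here. No coordinates are given, as no genome build is named. The 64 control probe sets were left out. Differences of log2(intensity + 16) were fitted without covariates in limma 3.58.1 (lmFit, eBayes; R 4.3.3), 2-sided, with Benjamini-Hochberg adjustment over 45037 probe sets. Exact permutation used all 1716 splits. The fit was tested on simulated data with planted changes. Figures used matplotlib 3.10.9 in Python 3.11.15.

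The members, lists, offset and alternatives were chosen with earlier results of these data known. Every measured member is named; members and other genes with an unadjusted p under 0.05, and the 3 brightest members of each step list, are given by mouse range. Among other genes, those limits plus Gatm and Gamt apply. The number of arrays limits the precision. P-values by limma set each difference against the spread between arrays within the groups, moderated over all probe sets.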

Additional observations from a re-analysis of the deposited data

Results flagged for a closer look

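In 4 of 58 checks, 1 per member and group, a single mouse stood far from the rest, with a gap to its nearest neighbour above Dixon's 95% critical value; chance gives about 5% of such checks. Creatine-fed replicate 4 read 39 for Arg2 where the other 5 read 31 to 33 (gap over range 0.735), and creatine-fed replicate 2 read 139 for Shmt2 where the others read 107 to 116 (0.695). Untreated replicate 2 read 940 for Oat where the others read 807 to 856 (0.614), and untreated replicate 1 read 337 for Mthfd1 where the others read 241 to 273 (0.63). In each case the outlying mouse was the highest of its group.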

How the results depend on the processing

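No member passed under any alternative run, with a smallest adjusted p between 0.108 (without creatine-fed replicate 4) and 0.431 (without creatine-fed replicate 3); only 16 of the 29 were among the probe sets of higher mean, and Mtr was not. The count of all probe sets called, 4 as reported, was 0 with an offset of 1, 36 with an offset of 50, 137 among the 22519 probe sets of higher mean, 2 after quantile normalization, 161 with eBayes set to trend and robust, 2 when creatine-fed replicate 2 was left out along with untreated replicate 3, and from 0 to 6 over the fits that left out each mouse in turn. The count of members with an unadjusted p under 0.05, 4 as reported, was 2 after centring each array on its median and 1 without that pair of mice. It was between 1 and 5 without each mouse in turn, not always of the same members. Of the other genes, 1 (Fpgs) was called among the probe sets of higher mean and 0 as reported. The median of the members turned from -0.026 to 0.0258 after centring and ranged from -0.0736 to 0.0151 without each mouse in turn, above 0 only without creatine-fed replicate 6. With the replicate number as a block, 0 probe sets were called and 1 member had an unadjusted p under 0.05; same-numbered mice deviated together only weakly (residual correlations from -0.06 to 0.15), which does not show that the numbers pair the mice. The sign changed under quantile normalization for 6 members and under centring for 4, all within 0.07 of 0 as reported, for 5 without creatine-fed replicate 6, and for 5 with the mean of all probe sets of a gene (Odc1, Cbs, Shmt2, Mthfd1 from 0.06 to -0.03 and Mthfd2 from 0.16 to -0.05); no member with an unadjusted p under 0.05 changed sign. The 11 members under the array median on all arrays have intervals that reach 0.23 to 0.51 to each side of the log2 difference.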
